A study of Homo sapiens with 12 samples.

Results

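The replication-dependent histone genes are the genes that a dividing cell reads to make the bulk of its histone protein. They were chosen by symbol: every gene of the count files whose symbol starts with HIST1H, HIST2H, HIST3H or HIST4H, which gave 73 of 26364 genes. By class they were 6 genes for the linker histone H1, 18 for H2A, 20 for H2B, 14 for H3 and 15 for H4. By genomic cluster, 56 belonged to HIST1 on chromosome 6, 13 to HIST2 and 3 to HIST3 on chromosome 1, and 1 was *HIST4H4* on chromosome 12 (build hg19). The symbols of *HIST1H2APS1*, *HIST2H2BA* and *HIST2H2BC* are those of pseudogenes.

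Total RNA was sequenced from HCT116, a human colon cancer cell line, in 12 libraries, and every combination of line, inhibitor and TNFα was sequenced once. The cells were wildtype (WT) or a p65-deficient line derived from a single cell after CRISPR-Cas9 editing of *RELA*, the gene of the NF-κB subunit p65, so that any difference between the lines is that of 1 clone. Each line received no inhibitor, the TOP1 inhibitor camptothecin (CPT) or the TOP2 inhibitor ICRF193, each at 5 µM for 2 h, and was then taken without TNFα or after TNFα at 20 ng/mL had been present for 1 h more. The study's methods name untreated and vehicle-treated cells, and the labels do not say which of them the libraries without inhibitor hold. No combination had a second library, so the 4 pairs that match in line and TNFα stood in for replicates when an inhibitor was compared with its absence, and 6 such pairs were used for TNFα and for the clone. The p-values therefore measure the spread between these pairs. The CPT and ICRF193 comparisons share the 4 libraries without inhibitor. A CPT library with TNFα had also seen the inhibitor for the added hour, which cannot be told apart from TNFα itself.

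Histone genes of this type have no introns, as a rule, and their mRNAs end in a conserved stem-loop in place of a poly(A) tail. The stem-loop is bound by SLBP, the factor that guides the processing, translation and decay of the transcript. Transcription is highest in S phase, when new DNA has to be packed, and the mRNAs are known to be degraded quickly when DNA synthesis stops. H2A pairs with H2B and H3 with H4 in the nucleosome core, and H1 binds the linker DNA outside it. Since the libraries were made from total RNA and not from poly(A)-selected RNA, transcripts without a tail could be captured.

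Counted reads ranged from 8101212 to 22051046 per library, and 4 libraries of the p65-deficient line were shallow, at no more than 8755001 reads: the one with ICRF193 and no TNFα and all 3 with TNFα. Normalized counts are counted reads divided by the size factor of the library. *RELA* itself was at 694 to 909 normalized counts in WT and at 548 to 673 in the p65-deficient line; counts over the whole gene do not show the edit. Of the 8 epithelial markers, *EPCAM*, *CDH1*, *KRT8*, *KRT18*, *KRT19* and *CDX2* were read in every library, *VIL1* had at most 4 reads and *CDX1* none. Of the 5 markers of other cell types, *PTPRC*, *PECAM1* and *COL1A2* had at most 3 reads, while *COL1A1* and *CD68* lay at 74.6 to 352 normalized counts. Histone genes took 1.55% to 1.80% of the counted reads in the 8 libraries without CPT and 0.122% to 0.161% in the 4 with it. Among the 8, the library of the p65-deficient line with neither inhibitor nor TNFα stood apart at 1.80%, the other 7 lying at 1.62% or below, and it is named again where a comparison rests on it.

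The stem-loop could be looked up in the transcripts of GENCODE release 29, which run past the stop codon for only some of these genes. A pattern of 16 bases was searched on the transcript strand, within 150 bases of the stop codon; it opens with GG, closes with CC and carries TTNTNA from base 6. It was present in 31 of the 35 histone genes with 50 or more bases after the stop (88.6%) and in 59 of 18770 other coding genes (0.314%). The first base of the match lay 23 to 68 bases after the stop. The forms found, which include that of *HIST1H4J* with its shorter tail, are shown because they divide along the histone classes, with the 4 bases of the loop in capitals.
H2A, H2B and H3 form, 17 genes: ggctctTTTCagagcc
H2B and H3 form, 5 genes: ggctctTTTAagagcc
H4 form, 5 genes: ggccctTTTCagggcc
second H4 form, 3 genes: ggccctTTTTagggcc
HIST1H3E form, 1 gene: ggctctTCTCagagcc
HIST1H2AG form, 1 gene: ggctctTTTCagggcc
The 8 H4 matches all had a stem that opens with ggccct, while each of the 24 matches in the other classes opened with ggctct. *HIST1H3E* was the 1 gene with TCTC in the loop. No match was found in *HIST1H1T*, *HIST1H1E* and *HIST1H4C*, whose annotated transcripts stop 51 to 57 bases after the stop codon, or in *HIST1H2BJ*.

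Promoters were taken from RefSeq (GRCh38.p14) as windows from 250 bases before to 50 bases after the annotated start, and 61 histone genes had a single such window; 4 more had a pair of windows and were left out. 3 motifs were searched, none of which overlapped another in these windows. CCAAT or its reverse ATTGG, the box bound by NF-Y, was in 51 of 61 windows (83.6%) against 34.6% of all 35116 windows. All 48 windows of H1, H2A, H2B and H3 genes held it, but only 3 of 13 H4 windows. The octamer ATTTGCAT or its reverse ATGCAAAT, which OCT1 (*POU2F1*) binds, was in 11 of 16 H2A and 13 of 16 H2B windows and in no window of H1, H3 or H4 genes, against 1.77% of all windows. TATAAA on the gene's strand was in 36 of 61 (59.0%) against 7.33%. H2A and H2B genes that lie head to head share most of their window, so these counts are not over independent sequences. Shown here, with the motifs in capitals, are the windows of *HIST1H2BM*, whose reads fell most with CPT, of *HIST1H2BC*, an H2B gene that fell less than its head-to-head H2A neighbour, and of *HIST4H4*, which has neither octamer nor CCAAT box.
HIST1H2BM promoter, chr6:27814772-27815071, plus strand: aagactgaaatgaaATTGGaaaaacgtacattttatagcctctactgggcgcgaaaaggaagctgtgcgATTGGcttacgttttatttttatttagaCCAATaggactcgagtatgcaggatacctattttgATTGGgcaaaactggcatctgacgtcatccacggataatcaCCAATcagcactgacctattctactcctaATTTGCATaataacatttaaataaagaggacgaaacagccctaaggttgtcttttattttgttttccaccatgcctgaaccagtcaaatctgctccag
HIST1H2BC promoter, chr6:26123877-26124176, minus strand: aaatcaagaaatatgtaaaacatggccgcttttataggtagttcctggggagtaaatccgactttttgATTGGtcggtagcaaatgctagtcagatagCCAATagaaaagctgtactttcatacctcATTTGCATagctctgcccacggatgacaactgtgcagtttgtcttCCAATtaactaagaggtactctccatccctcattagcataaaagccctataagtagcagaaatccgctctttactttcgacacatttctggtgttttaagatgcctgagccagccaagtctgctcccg
HIST4H4 promoter, chr12:14771082-14771381, minus strand: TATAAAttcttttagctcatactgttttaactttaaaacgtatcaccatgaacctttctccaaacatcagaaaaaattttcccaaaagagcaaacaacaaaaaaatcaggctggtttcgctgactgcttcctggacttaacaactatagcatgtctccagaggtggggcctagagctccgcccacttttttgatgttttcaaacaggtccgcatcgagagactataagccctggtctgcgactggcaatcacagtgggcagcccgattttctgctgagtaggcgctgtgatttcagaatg
In the window of *HIST1H2BM* the octamer begins at position -48 from the transcription start, and 5 CCAAT or ATTGG motifs lie further out, at positions -236 to -77. In that of *HIST1H2BC* the octamer begins at -123, among 3 CCAAT or ATTGG motifs at -182 to -78. In that of *HIST4H4* the single match is TATAAA at position -250, the far edge of the window.

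Of the 73 genes, 47 had at least 20 reads in at least 1 library, 19 had between 1 and 18 reads at most, and 7 had none in any library. Of the 7, 6 are the pairs *HIST2H4A* and *HIST2H4B*, *HIST2H3A* and *HIST2H3C*, and *HIST2H2AA3* and *HIST2H2AA4*. The annotation gives both genes of each pair the same exons, and the counting left out reads that overlap more than 1 gene, so no read could be assigned to them. The other was *HIST1H4G*. *HIST1H4J* and *HIST1H4K*, which had at most 11 and 18 reads, share every 36-base stretch of their coding sequence with each other, and reads that map equally well to both were left out of the counts. Among the 16 coding genes with 1 to 18 reads, a median of 1.34% of the coding stretches occurred in another histone gene, against 6.94% among the 47 with 20 reads or more. Only coding sequences of the chosen histone genes were compared. How many reads were lost because they map to several places was not tested. Of the well-read genes, *HIST1H2AI* and *HIST1H2AJ* shared 83.0% and 84.4% of their stretches with each other, and their values are the least certain. *HIST1H2AD* has 85.3% of its exonic bases in common with *HIST1H3D*, and its counts come from the remainder.

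Many of the genes with few reads lay next to each other, while *HIST1H4I*, with at most 11 reads, and *HIST2H2BA* lay apart from the others. On chromosome 6, *HIST1H1D*, *HIST1H4F*, *HIST1H4G*, *HIST1H3F*, *HIST1H2BH*, *HIST1H3G* and *HIST1H2BI* follow one another at chr6:26234440-26273640 (hg19), and none of the 7 had more than 4 reads in any library. *HIST1H2AL*, *HIST1H1B*, *HIST1H3I* and *HIST1H4L* follow one another at chr6:27833107-27841289 with at most 3 reads. *HIST1H2AA*, *HIST1H2BA*, *HIST1H2APS1* and *HIST1H1A*, at the start of the cluster, had at most 10. The neighbours on either side of the first run were *HIST1H3E*, at 258 normalized counts per kb of exon without inhibitor, and *HIST1H4H*, at 2906. Among the genes with few reads was *HIST1H2BA*, the H2B gene of the testis, but also *HIST1H1B* and *HIST1H1D*, which encode linker histones of somatic cells.

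**Figure D1:**
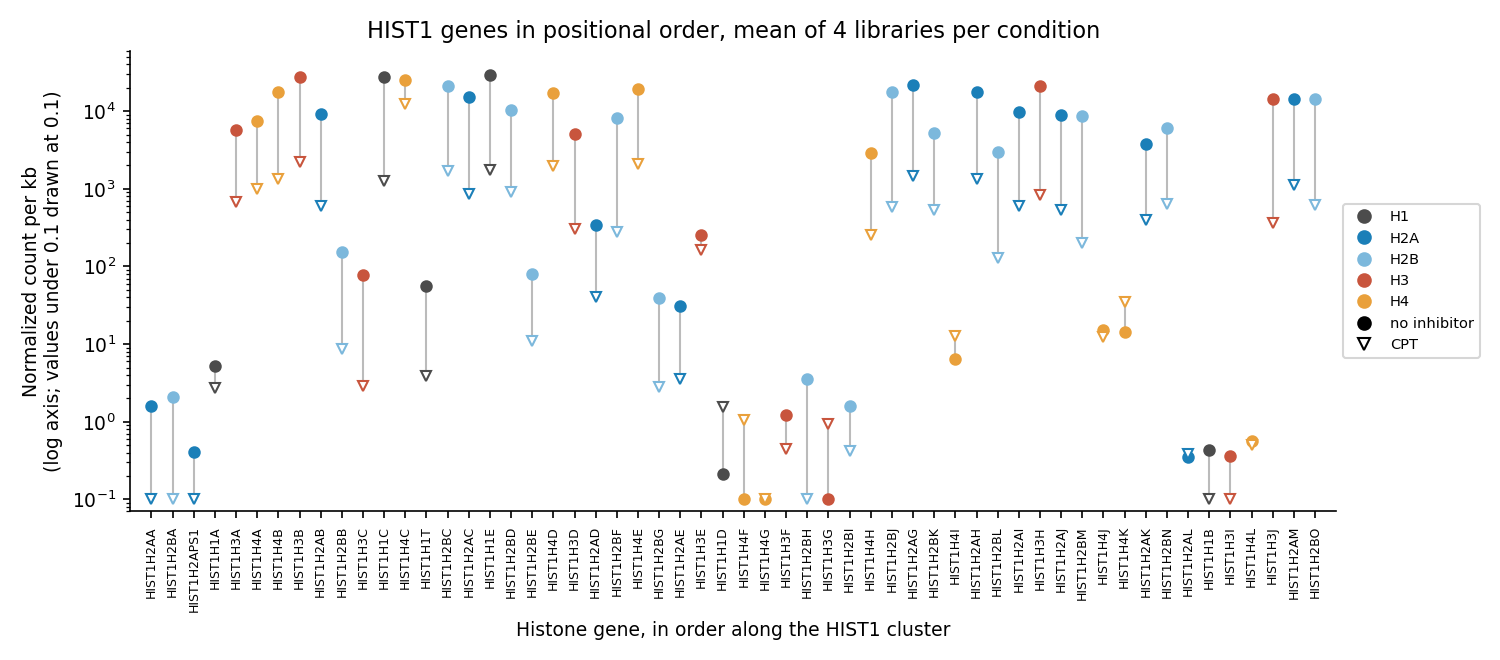
Normalized counts per kb of exon (log axis) of the 56 HIST1 genes in their order along chromosome 6, as the mean of the 4 libraries without inhibitor (filled) and of the 4 with CPT (open triangles), coloured by class. The runs of genes at or near 0 stand next to well-read genes, and *HIST1H4C* and *HIST1H3E* have the shortest lines among the genes over 100.

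Without inhibitor, the highest levels per kb of exon were those of *HIST1H1E* (29230.5 normalized counts per kb), *HIST1H3B* (27904), *HIST1H1C* (27149) and *HIST1H4C* (25365). *HIST1H2AG* (22027) and *HIST1H2BC* (21009.6) led their classes. With CPT the order was another one: *HIST1H4C* was at 12475 normalized counts per kb, *HIST1H3B* at 2218, *HIST1H4E* at 2115 and *HIST1H4D* at 1965, so that *HIST1H4C* stood alone.

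The first comparison asked what inhibition of TOP1 did to the histone genes. CPT lowered the reads of every class. In sums over the genes of a class, H1 fell to 4.71% to 5.67% of the level without inhibitor across the 4 pairs, H2B to 5.44% to 6.51%, H3 to 5.40% to 6.79% and H2A to 6.31% to 8.05%. H4 retained more, 20.2% to 24.2%, and its range did not overlap that of any other class. Much of this was *HIST1H4C*: without it the H4 sum kept 9.93% and 10.4% in the WT pairs and up to 11.96% in the p65-deficient pairs, still above the other classes in all 4 pairs. Over all histone genes, 7.72% to 9.46% of the reads remained. These are bulk libraries, so fewer cells making histone mRNA and less mRNA in each of them cannot be told apart.

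**Figure D2:**
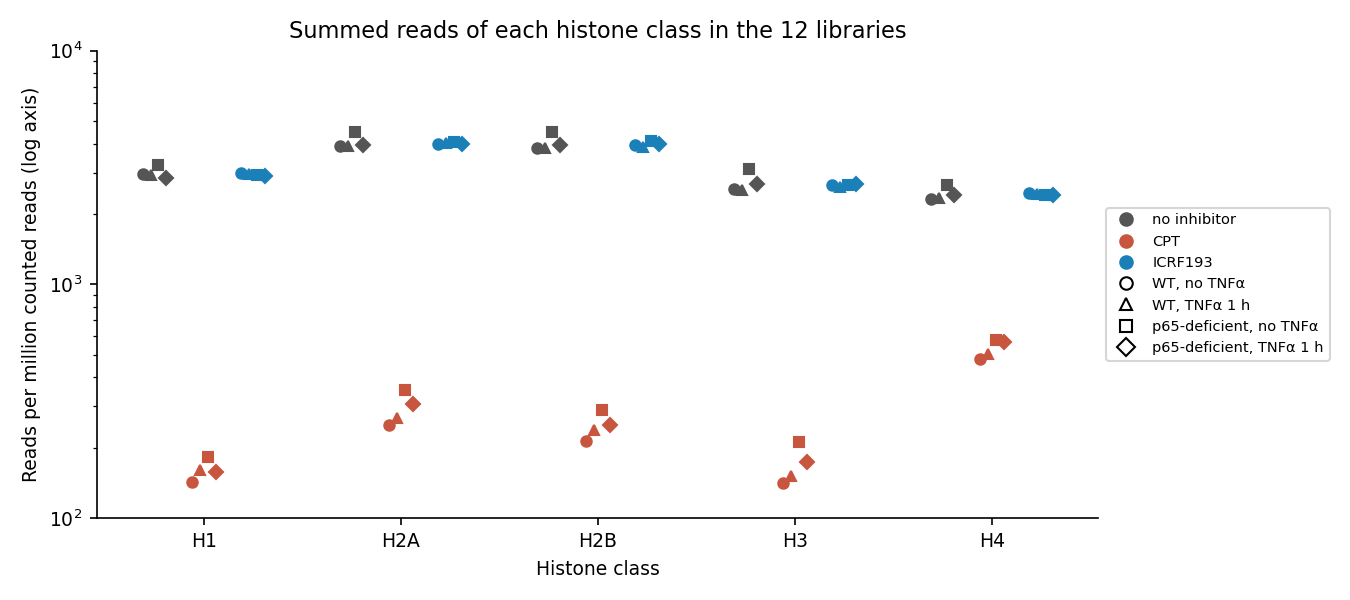
Counted reads in CPM (log axis), summed over the genes of each histone class, with 1 point per library, coloured by inhibitor and shaped by line and TNFα. The 4 CPT points of each class lie below the 8 others without overlap, and those of H4 lie highest, at 479 to 578 CPM.

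In the quasi-likelihood test of edgeR, in which each pair was a block, 46 of the 47 histone genes tested were lower with CPT and 1 was higher, at a Benjamini-Hochberg adjusted p under 0.05 over 13993 genes. Over all genes tested, 25.1% were lower and 23.2% were higher. The median log2 change was -3.74 for the histone genes and 0.02 for all genes. Genes that were over 8-fold lower made up 0.357% of all those tested, and 40 of these 50 were histone genes. Among the 36 of the 50 with a mean of at least 100 normalized counts, 35 were histone genes, the exception being *MAP3K14* (log2 change -3.19 ± 0.19 SE), named here after its value was seen. The filter on low counts kept 46 of the 47 genes with 20 reads or more, *HIST3H3* being left out, and *HIST2H2BC*. A gene with few reads can pass such a filter through the libraries of 1 condition. *HIST1H1T*, *HIST1H2AE*, *HIST1H2BB*, *HIST1H2BE*, *HIST1H2BG* and *HIST1H3C* had at most 8 reads in any CPT library and passed through those without CPT. *HIST2H2BC* passed through the CPT libraries. By class, 3 of 3 H1, 13 of 13 H2A, 15 of 16 H2B, 8 of 8 H3 and 7 of 7 H4 genes were lower, with median log2 changes of -4.08, -3.74, -4.13, -3.86 and -3.15. In DESeq2's Wald test 46 were lower and none higher, and in the WT pairs alone, which hold none of the shallow libraries, 47 of 48 were lower and none higher.

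**Figure D3:**
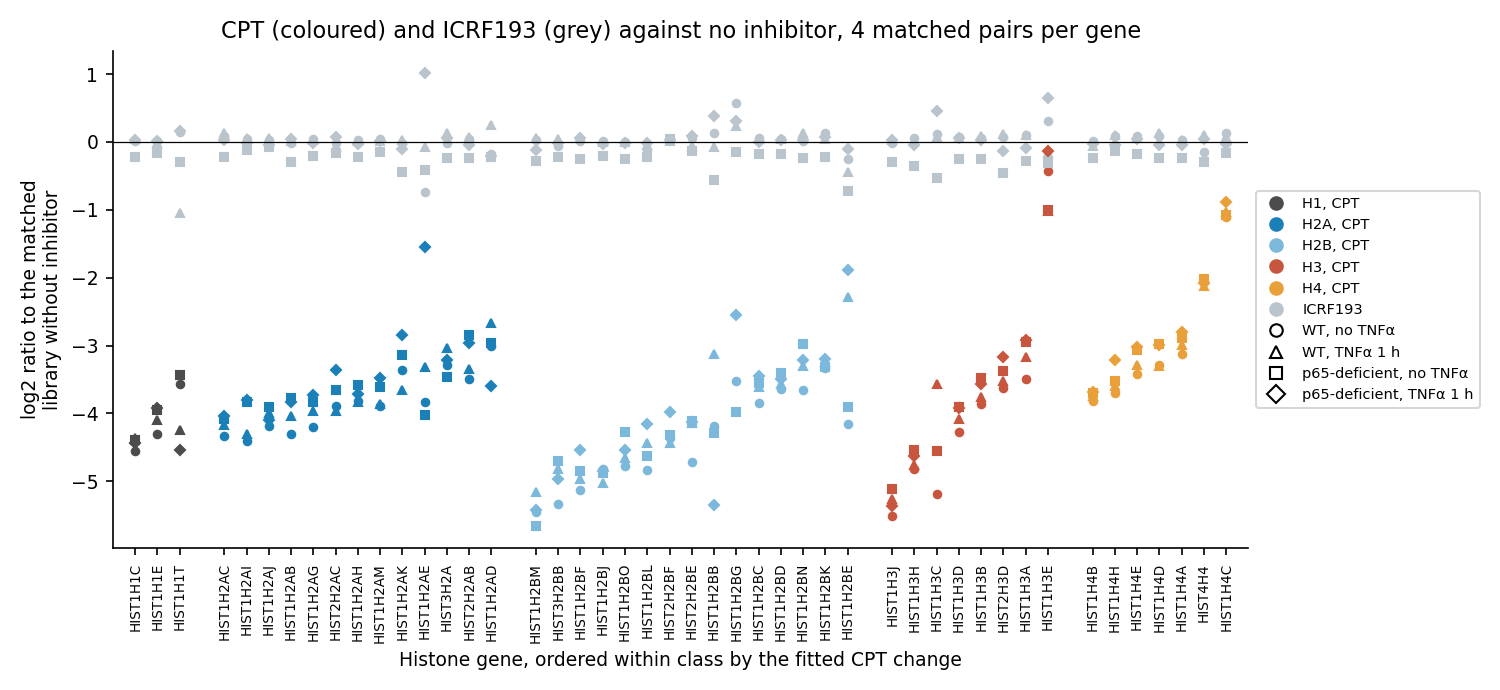
Log2 ratio of normalized counts to the matched library without inhibitor, for the 46 histone genes with at least 20 reads in a library that were tested, with CPT in the colour of the class and ICRF193 in grey, 1 point per pair; *HIST1H3C* and *HIST1H2BG* have 3 CPT points, since 1 of their CPT libraries had no read and is not drawn. The ICRF193 points lie around 0 in the well-read genes, and all CPT points of *HIST1H3E* and *HIST1H4C* lie above those of the other genes.

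In what follows the 4 values of a condition are always given in the order WT, WT with TNFα, p65-deficient, p65-deficient with TNFα. Among the linker histones, *HIST1H1E*, which encodes H1.4, had normalized counts of 23533, 23529, 24219 and 20503 without inhibitor, 1189, 1372, 1563 and 1355 with CPT, and 23735, 23329.8, 21542 and 20787 with ICRF193. Every CPT library lay below every other library, and the fitted log2 change was -4.08 ± 0.07 (SE). *HIST1H1C* encodes H1.2. *HIST1H1C* had normalized counts of 19225, 19149, 22257 and 18861 without inhibitor, 821, 934, 1064 and 875 with CPT, and 19381, 19786, 19093 and 19169.8 with ICRF193. Its change, -4.44 ± 0.05, was the largest of the 3 H1 genes tested, with 4.65% of the mean level left. *HIST1H1T* encodes the linker histone of testis and was read at a far lower level. *HIST1H1T* had normalized counts of 29.5, 41.4, 50.5 and 40.8 without inhibitor, 2.49, 2.19, 4.68 and 1.75 with CPT, and 32.7, 20.1, 41 and 45.8 with ICRF193. It changed by -3.76 ± 0.29, the CPT libraries again below all others, with a wider spread of -4.55 to -3.43 between the pairs.

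H2A forms a dimer with H2B, and its genes fell within a narrow band of log2 changes, from -4.17 to -2.98. *HIST1H2AG* had normalized counts of 10488, 10499.5, 12446 and 10444 without inhibitor, 573, 672, 872 and 791 with CPT, and 10811, 10732, 10822 and 10339 with ICRF193. *HIST1H2AH* had normalized counts of 8078, 8338, 9379.6 and 8018 without inhibitor, 573, 587, 783 and 613 with CPT, and 8237, 8383, 8023 and 7853 with ICRF193. These were the 2 H2A genes with the highest mean count, and they retained 6.63% and 7.56% of the mean level without inhibitor (log2 changes -3.94 ± 0.07 and -3.74 ± 0.05). *HIST1H2AC* had normalized counts of 8078, 8242, 9182 and 7634 without inhibitor, 399.5, 457, 541 and 463 with CPT, and 8544, 9061, 7886 and 7819 with ICRF193. Its log2 change, -4.17 ± 0.05, was the largest among the H2A genes. *HIST1H2AD* had normalized counts of 167, 144, 189 and 190.3 without inhibitor, 20.8, 22.6, 24.2 and 15.7 with CPT, and 148, 173, 163 and 164 with ICRF193. It fell least, with a log2 change of -2.98 ± 0.15, and its count rests on the part of the gene that is free of *HIST1H3D*. In all 4 genes the CPT libraries did not overlap the rest.

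The H2B genes held the largest fall of all. *HIST1H2BM* had normalized counts of 3435, 3482, 4673 and 3973 without inhibitor, 78.1, 97, 92.9 and 92.5 with CPT, and 3486, 3613, 3858 and 3662 with ICRF193. With CPT, 2.32% of the mean level remained, and the log2 change was -5.43 ± 0.08. The H2B genes with the highest mean count fell less. *HIST1H2BC* had normalized counts of 8879, 9038, 10178 and 8714 without inhibitor, 615, 738, 864 and 798 with CPT, and 9271, 9311, 8986 and 8725 with ICRF193. *HIST1H2BD* had normalized counts of 8764, 8885, 9896 and 8436 without inhibitor, 704, 752, 936 and 751 with CPT, and 9051, 9163, 8766 and 8608 with ICRF193. Their log2 changes were -3.63 ± 0.06 and -3.53 ± 0.05, and 8.19% and 8.74% of the level was left. *HIST1H2BE* fell least among the H2B genes called lower. *HIST1H2BE* had normalized counts of 29.5, 28.4, 47 and 32.3 without inhibitor, 1.66, 5.84, 3.12 and 8.73 with CPT, and 24.7, 20.9, 28.4 and 30 with ICRF193. Its log2 change was -2.97 ± 0.35, from 2 to 8 reads in each CPT library, and the pairs spread from -4.15 to -1.89. *HIST2H2BC*, a pseudogene by its symbol, was the 1 histone gene called higher with CPT. Its raw counts were 5, 5, 1 and 5 without inhibitor, 10, 11, 11 and 6 with CPT and 2, 3, 1 and 0 with ICRF193. It was tested only because its counts in the CPT libraries passed the filter, so the direction of the call is not independent of that choice. The log2 change of 1.31 ± 0.47 had an adjusted p of 0.037 in edgeR's test and of 0.16 in DESeq2's. Leaving out any pair but that of the p65-deficient line with TNFα also ended the call.

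Among the genes called lower, those for H3 spread most widely, with log2 changes from -5.30 to -0.70. *HIST1H3B* had normalized counts of 12579.8, 12655, 14869.9 and 12579 without inhibitor, 864, 931, 1334 and 1058 with CPT, and 13067, 13375, 12547 and 12765 with ICRF193. *HIST1H3H* had normalized counts of 9361, 9335, 11759.9 and 9357 without inhibitor, 332, 346, 505 and 379 with CPT, and 9737, 9465, 9203 and 9036 with ICRF193. These 2 genes had the highest mean count of the class, and their log2 changes were -3.68 ± 0.06 and -4.69 ± 0.06. *HIST1H3J* had normalized counts of 6378, 6266, 8238 and 6682 without inhibitor, 139.5, 163, 239 and 162 with CPT, and 6326, 6384, 6709 and 6816 with ICRF193. It fell most of the H3 genes, with a log2 change of -5.30 ± 0.07 and 2.55% of the level left. At the other end stood *HIST1H3E*, the gene with TCTC in its stem-loop. *HIST1H3E* had normalized counts of 108, 119, 148 and 102 without inhibitor, 79.7, 58.4, 74.1 and 92.5 with CPT, and 133, 106, 119.9 and 159 with ICRF193. In each pair the CPT library was the lower one, with log2 ratios of -1.02 to -0.14, and all 4 CPT libraries lay below the 8 others, though by little. The fitted log2 change was -0.70 ± 0.15, with an adjusted p of 0.0032 in edgeR's test. The reads of *HIST1H3E* were few beside those of *HIST1H3B*, 258 against 27904 normalized counts per kb without inhibitor.

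The median fall of the H4 genes was the smallest of the 5 classes, though single H4 genes fell as much as many others, and *HIST1H4C* fell least among them. *HIST1H4C* had normalized counts of 9507, 9720.2, 10767 and 9576 without inhibitor, 4403, 4729, 5123 and 5205 with CPT, and 10442, 10178, 9588 and 9379 with ICRF193. All CPT libraries lay below the others, and 49.2% of the mean level remained, with a log2 change of -1.03 ± 0.05 and an SD of 0.10 between the 4 pairs. Of the other H4 genes, *HIST1H4E* had the highest mean count. *HIST1H4E* had normalized counts of 7005, 7257, 7956 and 6898 without inhibitor, 652, 741, 949.6 and 847 with CPT, and 7424, 7543, 7002 and 7128 with ICRF193. Its log2 change was -3.21 ± 0.06. *HIST1H4B* had normalized counts of 6229.9, 6219.8, 7090.5 and 5887 without inhibitor, 441, 464, 546 and 459 with CPT, and 6315, 5946, 6026 and 5783 with ICRF193. It fell most of the class, with a log2 change of -3.74 ± 0.05. The H4 proteins made from these genes are the same, so the transcripts of 1 protein differed in what CPT left of them, from 7.51% to 49.2%.

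The make-up of the histone reads shifted accordingly. H4 took 14.8% to 15.3% of the histone reads in the 8 libraries without CPT and 35.8% to 39.1% in the 4 with it. H1 went from 17.9% to 19.0% down to 10.8% to 12.1%, H2A from 24.9% to 25.3% down to 20.3% to 21.8%, H2B from 24.4% to 25.3% down to 17.1% to 18.0%, and H3 from 16.3% to 17.4% down to 11.4% to 13.1%. *HIST1H4C* alone made up 4.15% to 4.51% of histone reads without CPT and 22.0% to 25.3% with it. Its part of the H4 reads rose from 28.1% to 29.4% up to 61.3% to 65.1%. With *HIST1H4C* left out, H4 still rose from 11.1% to 11.4% up to 17.7% to 18.5% of the remaining histone reads.

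**Figure D4:**
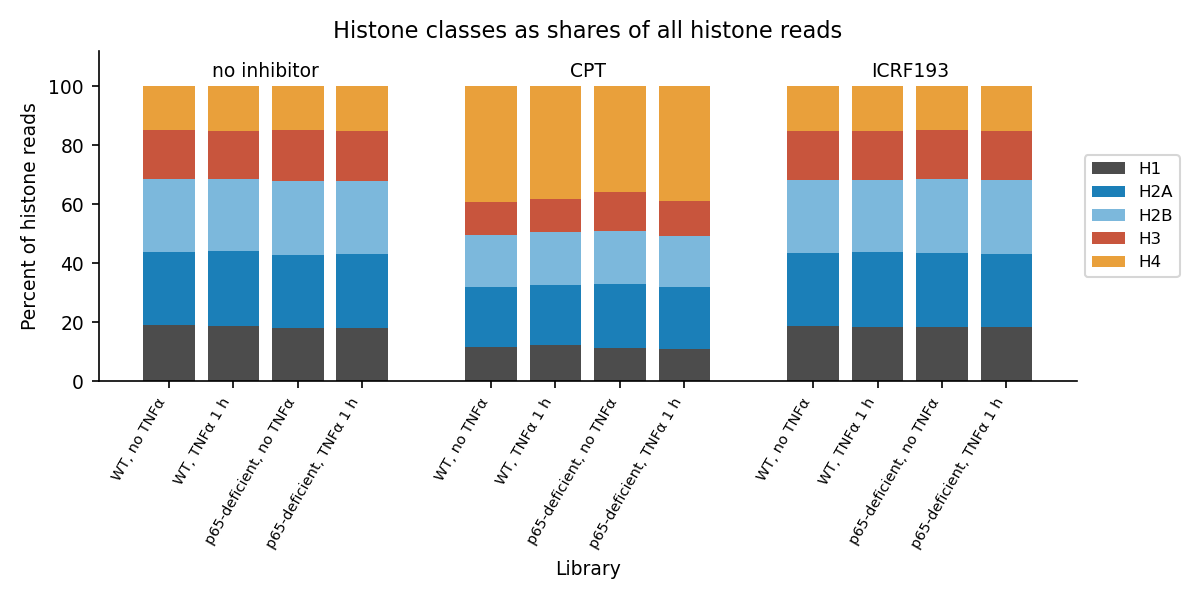
Share of each class among the histone reads of each of the 12 libraries, in percent, grouped by inhibitor. The H4 part is 35.8% to 39.1% in the 4 CPT libraries and 14.8% to 15.3% in the 8 others.

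By cluster, HIST1 held 91.3% to 92.0% of the histone reads in every library, with or without CPT. HIST2 went from 6.09% to 6.39% down to 5.11% to 5.91% with CPT. HIST4, that is *HIST4H4*, went from 0.429% to 0.529% up to 1.19% to 1.62%. Within HIST1, the genes fall into 3 groups separated by wide gaps. The first, from *HIST1H2AA* to *HIST1H4H*, had a median log2 change of -3.65, the second, from *HIST1H2BJ* to *HIST1H2AH*, of -3.84, and the third, from *HIST1H2BL* to *HIST1H2BO*, of -4.32. The ranges of the 3 groups overlapped.

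The 5 HIST2 genes with 20 reads or more lie on chromosome 1. *HIST2H2BE* had normalized counts of 4395, 4345, 4996 and 4036 without inhibitor, 167, 247, 290.3 and 231 with CPT, and 4564, 4171, 4555 and 4279.6 with ICRF193. *HIST2H2BF* had normalized counts of 2109, 2108, 2308 and 1949 without inhibitor, 102, 97.8, 116 and 124 with CPT, and 2174, 2129, 2379 and 1995 with ICRF193. These H2B genes, with 55.2% and 54.6% of the 36-base stretches of their coding sequence found in another histone gene, changed by -4.27 ± 0.09 and -4.30 ± 0.08 on the log2 scale. *HIST2H2AC* had normalized counts of 2788, 3047, 2982 and 2542 without inhibitor, 188, 195, 237 and 248 with CPT, and 2755, 2904, 2676 and 2679.9 with ICRF193. *HIST2H2AB* had normalized counts of 3541, 3590.5, 4018 and 3407 without inhibitor, 313, 355, 560.3 and 438 with CPT, and 3665, 3789.8, 3406 and 3291 with ICRF193. The H2A genes of the cluster changed by -3.75 ± 0.08 and -3.17 ± 0.09. *HIST2H3D* had normalized counts of 1373, 1391, 1704 and 1369.7 without inhibitor, 111, 120.4, 164 and 152 with CPT, and 1438, 1500.0, 1235 and 1249 with ICRF193. The H3 gene *HIST2H3D*, which encodes H3.2, changed by -3.45 ± 0.08. In all 5 the CPT libraries lay below every other library.

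HIST3 has 3 genes, also on chromosome 1. *HIST3H2BB* had normalized counts of 1979.7, 1959.6, 1720.2 and 1424 without inhibitor, 49, 69.3, 66.3 and 45.4 with CPT, and 1899, 2015, 1467 and 1412 with ICRF193. It changed by -4.94 ± 0.10, with 3.25% of the level left. *HIST3H2A* had normalized counts of 2190.4, 2003, 2197 and 1784 without inhibitor, 225, 244, 199.8 and 192 with CPT, and 2157, 2185, 1868 and 1851 with ICRF193. This neighbour of *HIST3H2BB* changed by -3.25 ± 0.07, with 10.5% left. *HIST3H3*, which encodes the H3 of testis, was not tested; its raw counts were 15, 17, 11 and 5 without inhibitor, 1, 0, 1 and 0 with CPT and 9, 23, 7 and 2 with ICRF193. On chromosome 12, *HIST4H4* had normalized counts of 1179.5, 1148, 1177 and 1045 without inhibitor, 282, 263, 291 and 246 with CPT, and 1065, 1229.6, 958 and 1074 with ICRF193. It changed by -2.08 ± 0.06, and its 4 pairs agreed within -2.12 to -2.02; only *HIST1H3E* and *HIST1H4C* fell less among the genes called lower.

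H2A and H2B genes often lie head to head, with their starts close together, so that both are read outwards from a shared stretch of DNA. Of the 12 such pairs found, in 10 both genes had 100 reads or more in each library without inhibitor, with starts 224 to 323 bases apart. The H2B gene fell more than its H2A neighbour in all 4 library pairs in 7 of the 10, fell less in all 4 in 2, and did neither in 1. No test was made over the 4 library pairs. The difference between the log2 ratios of *HIST1H2BM* and *HIST1H2AJ* was -1.28, -1.17, -1.74 and -1.33 in the 4 library pairs, a mean of -1.38 ± 0.25 (SD, n = 4 pairs). *HIST1H2AJ* shares 84.4% of its coding stretches with *HIST1H2AI*, which is in another of the 10 pairs, and the values of both are less certain. For *HIST3H2BB* and *HIST3H2A* it was -2.05, -1.78, -1.24 and -1.76, a mean of -1.71 ± 0.34 (SD, n = 4 pairs). For *HIST1H2BJ* and *HIST1H2AG* the mean was -0.96 ± 0.23 (SD, n = 4 pairs), and for *HIST1H2BO* and *HIST1H2AM* it was -0.85 ± 0.16 (SD, n = 4 pairs). The pair *HIST1H2BF* and *HIST1H2AD* had the widest gap, -1.81 ± 0.60 (SD, n = 4 pairs), but *HIST1H2AD* is the gene that overlaps *HIST1H3D*. In the other direction, *HIST1H2BC* fell less than *HIST1H2AC*, by 0.49, 0.56, 0.53 and 0.60 in the library pairs, and *HIST1H2BK* less than *HIST1H2AH*, by 0.49, 0.58, 0.27 and 0.50. *HIST1H2BK* was counted over 2 exons and 839 bases, while the H2B gene of each other pair has 1 exon. The part of the added exon in its value was not tested. *HIST1H2BN* and *HIST1H2AK* differed by -0.04 ± 0.35 (SD, n = 4 pairs), with both signs among the library pairs.

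**Figure D5:**
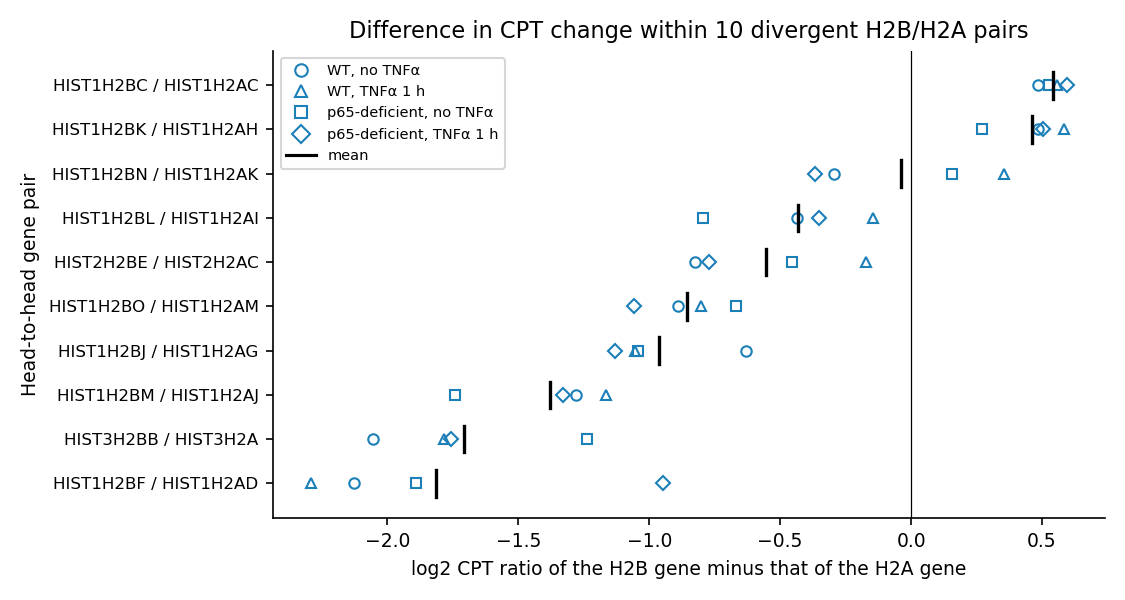
Log2 CPT ratio of the H2B gene minus that of its head-to-head H2A gene, 1 row per gene pair and 1 point per library pair, with the mean as a bar. All 4 points lie below 0 for 7 gene pairs and above 0 for *HIST1H2BC* with *HIST1H2AC* and *HIST1H2BK* with *HIST1H2AH*.

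In the 39 genes that had 100 reads or more in each of the 4 libraries without inhibitor, the order of the CPT ratios was much the same in each library pair. Spearman's rho between library pairs, none of which share a library, was 0.92 to 0.98 across these genes, which are not independent of each other and share their length and sequence between the pairs. The SD over the 39 genes was 0.84 on the log2 scale, against a median SD of 0.19 between the 4 library pairs of a gene. Neither level nor length ordered the genes strongly, with rho of -0.15 between the log2 change and the level per kb without inhibitor and of -0.30 with exonic length. Among genes with a single promoter window and 20 reads or more, the median log2 change was -3.99 for the 33 with a CCAAT box and -3.21 for the 5 without, all of which are H4 genes. It was -3.99 for the 19 with an octamer, all of which are H2A or H2B genes. For the 19 without, which include every H1, H3 and H4 gene compared here, it was -3.68. *HIST1H4C* and *HIST1H3E*, which fell least, were not among these genes.

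The same question was put to TOP2 with ICRF193. No histone gene passed the threshold: 0 of 47 were higher and 0 lower in edgeR's test, 5 had an unadjusted p under 0.05, and DESeq2 called 0, with none at an unadjusted p under 0.05. Over all 13631 genes tested, 0.587% were higher and 1.58% lower. The median log2 change of the histone genes was -0.03. In the 39 well-read genes, the ratios to the matched library without inhibitor lay between -0.46 and 0.26 over all 4 pairs, and class sums were at 81.6% to 105% of the level without inhibitor. The pair of the p65-deficient line without TNFα differed from the others, with a median ratio of -0.23 and 38 of 39 genes below 0, against medians of 0.03, 0.05 and -0.01 in the other 3 pairs. It was also the pair with unlike depth, 8755001 reads with ICRF193 against 20524958 without inhibitor. Its library without inhibitor is the one with 1.80% histone reads, and the part of depth or of that library was not tested. The median log2 change was 0.03 without this pair and 0.04 in the WT pairs. In the p65-deficient pairs alone, *HIST2H3D*, *HIST1H2BM* and *HIST1H2AK* were called lower, and in the 3 pairs that do not hold the library of 1.80% none was.

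When CPT was set against ICRF193 directly, 45 of 46 histone genes tested were lower with CPT and none was higher in edgeR's test, nor in DESeq2's, against 25.5% lower and 20.9% higher over all 13900 genes. The unadjusted p was under 0.05 for 45. The gene that was not called was *HIST1H4K*, at a log2 difference of 0.78. Its raw counts were 9, 17, 18 and 9 with CPT and 8, 12, 3 and 2 with ICRF193, and it is one of the pair with the same coding sequence. The median log2 difference was -3.70. *HIST1H3E* differed by -0.79 and *HIST1H4C* by -1.05.

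TNFα for 1 h changed no histone gene past the threshold: 0 of 46 were higher and 0 lower in edgeR's test, 6 had an unadjusted p under 0.05, and DESeq2 called 0, with 2 at an unadjusted p under 0.05. Over all 13730 genes, 0.168% were higher and 0.0218% lower. The median log2 change was -0.06, and 0.03 in the WT pairs alone. Medians over the 39 well-read genes were 0.00, 0.13 and 0.02 in WT without inhibitor, with CPT and with ICRF193. In the p65-deficient line they were -0.24, -0.21 and -0.03, the first with the library of 1.80% histone reads as its reference. In the pairs without inhibitor and with CPT, a shallow library with TNFα was set against a deep one without. Both libraries of the ICRF193 pair were shallow. The part of depth or of the library of 1.80% was not tested. In the p65-deficient pairs alone *HIST1H3H* was called lower, and that call has the same limit.

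Between the lines, 6 of 46 histone genes were higher and 2 lower in the p65-deficient clone (edgeR's test, adjusted p under 0.05), against 15.2% higher and 16.9% lower over all 13730 genes. *HIST1H2BJ* was 0.21 ± 0.04 higher on the log2 scale (adjusted p = 0.0028), *HIST1H2BM* 0.21 ± 0.06 (0.013), *HIST1H3J* 0.22 ± 0.07 (0.021) and *HIST1H2BO* 0.20 ± 0.07 (0.043). *HIST1H2BJ* had normalized counts of 7724, 7669.7, 9945 and 8219.8 without inhibitor, 272, 236, 338 and 285 with CPT, and 7788, 7628, 8567 and 8059 with ICRF193. *HIST1H2BO* had normalized counts of 6360.5, 6396, 7812 and 6592 without inhibitor, 232, 253, 402 and 283 with CPT, and 6383, 6386, 6562 and 6519 with ICRF193. For both genes the p65-deficient libraries lay above those of WT, among the 4 with CPT and among the 8 without it. *HIST1H1T* and *HIST1H2BB*, both with few reads, were higher by 0.58 ± 0.20 and 0.55 ± 0.19. *HIST1H2BB* had normalized counts of 60.4, 44.6, 91.2 and 71.4 without inhibitor, 3.32, 5.11, 4.68 and 1.75 with CPT, and 66.3, 42.5, 61.5 and 93.2 with ICRF193. The 2 lower genes were the HIST3 neighbours *HIST3H2BB*, with a log2 difference of -0.33 ± 0.07 (adjusted p = 0.0039), and *HIST3H2A*, with -0.16 ± 0.05 (0.021). In the 2 pairs without a shallow library, *HIST3H2BB* and *HIST3H2A* differed by -0.03 and -0.07 and were not called, and the median of the histone genes was 0.32 in place of 0.10; 1 of these 2 pairs holds the library of 1.80% histone reads, and the part of depth or of that library was not tested. Without the pair that holds the library of 1.80% histone reads, 1 gene was higher and 2 lower. With libraries scaled by total counts, 15 were higher and 1 lower.

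Whether CPT acted alike in both lines was tested as an interaction. The fall was smaller in the p65-deficient clone for 3 of 47 histone genes and larger for none (17 at an unadjusted p under 0.05 in edgeR's test), against 2.29% and 2.22% over all 13993 genes, and DESeq2 called 2 and 0. The median difference was 0.19 on the log2 scale. *HIST1H2AI* had normalized counts of 4484, 4447, 5105 and 4440.4 without inhibitor, 212, 226, 358 and 318 with CPT, and 4632, 4631, 4697 and 4411 with ICRF193. Its log2 CPT ratios were -4.40, -4.30, -3.83 and -3.80, a fitted difference of 0.50 ± 0.10 (adjusted p = 0.0088). For *HIST2H2AB* the ratios were -3.50, -3.34, -2.84 and -2.96, a difference of 0.50 ± 0.10 (adjusted p = 0.0088). *HIST1H4D* had normalized counts of 5862, 5952, 7113 and 6240.1 without inhibitor, 602, 601, 900.5 and 781 with CPT, and 6244, 6514, 6045 and 6053 with ICRF193. The difference was 0.28 ± 0.08 (adjusted p = 0.049, 0.24 in DESeq2's test). In all 3 genes both p65-deficient pairs lay above both WT pairs. The difference in CPT effect between cells with and without TNFα was past the threshold for 0 of 47 in either direction (1 at an unadjusted p under 0.05; DESeq2 called 0, with none under 0.05), where 0.0% of all genes were higher and 0.00715% lower. Its median was 0.07.

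By the medians of their lists, other genes of histone supply moved far less with CPT. Single genes named below, *H2AFJ*, *ZNF473* and *NPAT*, each changed more than *HIST1H4C* or *HIST1H3E*. Background for each list with CPT is the 23.2% higher and 25.1% lower of all genes. Of the replication-independent histone variants, many of which are made outside S phase too and from polyadenylated mRNA, 11 were tested. Of these, 7 rose and 2 fell, with a median log2 change of 0.18. *H2AFJ* rose by 1.32 ± 0.11 (SE), *H2AFZ* by 0.30 ± 0.04 and *H1F0* by 0.28 ± 0.05. *CENPA*, the H3 of centromeres, fell by 0.64 ± 0.08 and *H2AFX* by 0.27 ± 0.04, the latter a variant whose mRNA can also end in a stem-loop.

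Of 20 genes for histone gene transcription and 3′ end processing, 3 rose and 7 fell, with a median of 0.02. The largest falls were those of *ZNF473*, a component of the U7 snRNP pathway (log2 change -1.31 ± 0.15), *NPAT*, the coactivator of histone loci (-1.21 ± 0.08), and *LSM11*, a U7 snRNP protein (-0.82 ± 0.09). *SLBP* fell by 0.30 ± 0.05 on the log2 scale, and *MIF4GD*, *NCBP2* and *NCBP1* rose by 0.44, 0.20 and 0.13. Of 12 genes for the decay of histone mRNA, none rose in edgeR's or DESeq2's test and 7 fell (5 in DESeq2's; 7 at an unadjusted p under 0.05), with a median of -0.18; *MTPAP* fell by 0.71 ± 0.05, *SMG1* by 0.52 ± 0.06 and *PAPD5* by 0.32 ± 0.07. The exonuclease gene *ERI1* fell by 0.17 ± 0.05.

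Of 13 histone chaperones, 3 rose and 4 fell, with a median of -0.02. *SSRP1*, *ASF1B* and *NAP1L1* rose by 0.23, 0.21 and 0.15, and *HIRA*, *CHAF1A* and *ASF1A* fell by 0.41, 0.31 and 0.25. Of 14 genes of DNA replication, 5 rose and 1 fell, with a median of 0.12: *TYMS* rose by 0.24, *MCM4* by 0.20 and *MCM5* by 0.17, and *CDC6* fell by 0.22. With ICRF193 no gene of the 5 lists was called by edgeR or DESeq2, with 1 or 2 per list at an unadjusted p under 0.05. With TNFα the 1 called was *CCNE2*, higher in edgeR's test and not called by DESeq2. Between the lines, 3 variants were higher and 3 lower, as were 4 and 3 of the transcription and processing genes, 1 and 0 of the decay genes, 3 and 2 of the chaperones and 1 and 2 of the replication genes. The share over all 13730 genes tested was 15.2% higher and 16.9% lower in the clone.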

How the data were processed

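The deposited files hold whole-number counts of reads per gene, 1 file per library, from TruSeq Stranded total RNA libraries. The submitters' processing notes name Trimmomatic, STAR and build hg19, and per the file headers the authors counted reads over exons with featureCounts 1.5.0. The command sets no strand option, and by its defaults reads that overlap 2 genes or map to several places were left out. The labels describe the p65-deficient line as shRNA, the study's methods as a CRISPR-Cas9 clone.

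Genes kept by edgeR's filterByExpr were tested with edgeR 4.0.16 (quasi-likelihood, TMM scaling, matched pair as block), with Benjamini-Hochberg adjustment over all genes. DESeq2 1.42.0 was an alternative and gave the size factors for normalized counts. The edgeR test, but not that of DESeq2, was tried on simulated data with 200 changed genes. Other alternatives were another scaling, other filters, no pair term, subsets of pairs and leaving out each pair. Values per library are given for the 2 genes with the highest mean and those with the largest and smallest CPT decrease in each class, all tested HIST2, HIST3 and HIST4 genes and those called in other comparisons. The genes and lists were chosen with earlier results of these data known.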

Additional observations from a re-analysis of the deposited data

Results flagged for a closer look

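The effect of CPT differed between the lines by the interaction test for 3 histone genes, each with a smaller fall in the p65-deficient clone. The log2 difference, p65-deficient minus WT, was 0.50 for *HIST1H2AI*, 0.50 for *HIST2H2AB* and 0.28 for *HIST1H4D*. *HIST1H2AI* shares 83.0% of its coding stretches with *HIST1H2AJ*. Of the 2 p65-deficient CPT libraries, 1 was shallow, as was the library it was compared with, and the reference of the other was the library with 1.80% histone reads. The part of either in these differences was not tested.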

How the results depend on the processing

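The fall with CPT held in direction and call for every gene called lower under each alternative that tested it, and 44 to 47 histone genes were called lower. The call of *HIST2H2BC* as higher was lost in 7 alternatives, and the count of genes called higher was 0 with DESeq2, in the WT pairs only, with a filter of at least 20 reads and with no replicate block (the pair term left out), and 0 to 2 when each pair was left out in turn. *HIST1H4K* entered that count in some alternatives. With ICRF193, 3 genes were lower in the p65-deficient pairs only, and with TNFα 1 was. Between CPT and ICRF193, 1 gene was higher with no filter on low counts. For the clone, the genes called higher numbered 2 with DESeq2, 13 with no filter, 15 with total counts, 0 with no replicate block and 1 to 8 when a pair was left out, the 1 without the pair that had neither inhibitor nor TNFα. Those called lower numbered 1 with total counts, 0 with no replicate block, 0 in pairs without shallow libraries and 1 to 3 when a pair was left out. The CPT effect was smaller in the clone for 6 genes with the size factors of DESeq2, and *HIST1H4D* was not called by the DESeq2 test. Where values moved, the cause was not tested. No call reversed, but the median over the histone genes changed sign for ICRF193, from -0.03 to 0.04 in the WT pairs only and 0.03 without the p65-deficient pair without TNFα, and for TNFα, from -0.06 to 0.03 in the WT pairs only. The labels give no replicate numbers, so the block is the match in line and TNFα, or in inhibitor. Low counts limit *HIST3H3*, *HIST1H2BB*, *HIST1H3C*, *HIST1H1T*, *HIST1H2BE*, *HIST1H2BG*, *HIST1H2AE* and *HIST1H3E*, and genes with identical exons were not measured.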
